A study of Mus musculus with 10 samples.

Results

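The genes described here encode pore-forming and auxiliary subunits of potassium, calcium, voltage-gated sodium and acid-sensing channels. They were taken by symbol from the deposited gene table (names that begin with Kcn, Cacna, Cacnb or Cacng, with Scn and a digit, or with Asic and a digit), and Kcnq1 and its antisense transcript Kcnq1ot1 were left out. The rule gave 96 of the 20579 genes listed. They are 63 potassium channel genes, 17 calcium channel genes, 9 voltage-gated sodium channel genes, 5 acid-sensing channel genes and 2 others, the antisense transcript Kcnd3os and the potassium channel regulator Kcnrg. RNA was sequenced from mouse intestine at stage E18.5, from cells sorted for green fluorescent protein driven by the promoter of Hopx, a homeodomain gene used to mark slow-cycling crypt cells. There were 5 libraries from p57KO embryos, which lack the cyclin-dependent kinase inhibitor p57Kip2, and 5 from p57WT embryos. Both groups were sorted on the same reporter and carry the strain label C57BL6/J / 129S4. The labels do not say which part of the p57Kip2 gene (Cdkn1c) is missing from the knockout allele. The design counts 5 intestines per genotype and names no litters.

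Cation channels set the membrane potential of excitable cells. In gut smooth muscle, L-type calcium channels carry the inward current of the action potential, and calcium-activated, voltage-gated and ATP-sensitive potassium channels oppose it. Enteroendocrine cells of the epithelium are also electrically active, and calcium entry through their channels triggers hormone release. In enterocytes and crypt cells, potassium channels keep up the driving force for chloride secretion and nutrient uptake.

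The knocked-out gene and markers of the cell types that a gut sort could hold were read first. Cdkn1c was at 0.153 to 2.06 CPM (counts per 1000000 of the scaled library total) in p57KO libraries and at 150.04 to 457 CPM in p57WT libraries. Hopx was at 126 to 199 CPM in p57KO libraries and 60.2 to 77.8 CPM in p57WT libraries. The label names the cells intestinal stem cells, and both groups also held RNA of other cell types. The 12 smooth muscle markers summed to 4764 to 32323 CPM in p57KO libraries and to 49375 to 98662 CPM in p57WT libraries. All 12 were called lower in p57KO, and p57KO 1 and p57KO 2 had the lowest sums, 4764 and 7312 CPM. Of 18 enteroendocrine markers 16 were called higher in p57KO, with sums of 8504 to 20973 CPM in p57KO and 186 to 1256 CPM in p57WT libraries. Of 18 general epithelial markers 16 were called higher, with sums of 9377 to 17780 CPM in p57KO and 3208 to 7737 CPM in p57WT libraries. Of 12 leukocyte markers 9 were read and all 9 were called higher, with sums of 135 to 7435 CPM in p57KO, the highest in p57KO 2, and 16.1 to 116 CPM in p57WT libraries. Of 9 fibroblast markers 6 were read and all 6 were called lower, with sums of 123 to 1231 CPM in p57KO and 2597 to 9183 CPM in p57WT libraries. Interstitial cell markers moved both ways, with 2 called higher and 3 lower of 6 tested. The share of counts on 3 ribosomal RNA features was 0.0301% to 0.435% in p57KO 1 to 4 and p57WT 2, and 9.47% to 17.0% in the others. In bulk RNA, fewer cells of a type and less RNA per cell cannot be told apart. Total counts were 10684179 to 26809231 in p57KO and 8037887 to 25527896 in p57WT libraries. A number of unstated meaning in the sample descriptions also splits the libraries. Number 607 holds p57KO 1, p57KO 2 and p57WT 1, 608 holds the other p57KO libraries and 740 the other p57WT libraries, so that values within 607 are the only ones that compare genotypes inside 1 number.

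Promoter windows of 3 genes, chosen after their values were seen, are printed. Asic5 and Kcnk16 were among the genes highest in p57KO relative to p57WT, and Kcnf1 had the most negative fold change of the 67 channel genes tested. Each window is the 250 bases before the start annotated by RefSeq on GRCm38.p6, 5′ to 3′ on the gene's own strand. They lie at chr3:81996672-81996921 on the plus strand, chr14:20269270-20269519 on the minus strand and chr12:17176889-17177138 on the minus strand. Capitals mark matches, on either strand, to TATAAA, a core promoter motif, or to CAGNTG, a form of the E-box that basic helix-loop-helix factors bind.
Asic5: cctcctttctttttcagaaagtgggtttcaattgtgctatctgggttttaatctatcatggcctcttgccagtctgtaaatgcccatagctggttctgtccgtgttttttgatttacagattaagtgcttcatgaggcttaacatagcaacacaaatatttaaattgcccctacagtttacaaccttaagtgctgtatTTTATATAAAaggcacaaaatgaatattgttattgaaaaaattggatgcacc
Kcnk16: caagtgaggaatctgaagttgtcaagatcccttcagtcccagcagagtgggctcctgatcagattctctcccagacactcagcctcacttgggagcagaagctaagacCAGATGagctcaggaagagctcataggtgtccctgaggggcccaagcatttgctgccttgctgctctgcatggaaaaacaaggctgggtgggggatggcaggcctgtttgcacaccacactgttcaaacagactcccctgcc
Kcnf1: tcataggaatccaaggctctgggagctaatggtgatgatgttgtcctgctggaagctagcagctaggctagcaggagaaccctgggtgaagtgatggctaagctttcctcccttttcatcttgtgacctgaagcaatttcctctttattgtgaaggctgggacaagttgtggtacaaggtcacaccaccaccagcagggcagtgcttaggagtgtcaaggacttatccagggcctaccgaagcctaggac
The Asic5 window has 2 overlapping TATAAA matches between 52 and 43 bases upstream, and the Kcnk16 window has a CAGNTG match 142 to 137 bases upstream. The start used for Asic5 lies inside the longer GENCODE M21 gene model, which begins at base 81982290 of chromosome 3. Of all 32851 RefSeq windows of this length, 12.4% hold TATAAA, 44.8% hold CAGNTG and 1.47% hold the CArG box, the binding motif of serum response factor. Windows were found for 9 of the 11 channel genes called higher (10 windows) and for 20 of the 26 called lower (28 windows). CAGNTG was in 6 and 13 of these, TATAAA in 1 and 1, and the CArG box in 0 and 0.

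The comparison of genotypes asks how channel genes in the sorted cells differ without p57Kip2. Calcium channel genes and most voltage-gated and calcium-activated potassium channel genes that changed were lower in p57KO, and the genes that were higher included endocrine, epithelial and inwardly rectifying potassium channels and Asic5. Of the 96 genes, 67 passed the expression filter and were tested (edgeR quasi-likelihood test, Benjamini-Hochberg adjustment over the 16710 genes tested). At an adjusted p below 0.05, 11 were higher and 26 lower in p57KO. Fold changes are p57KO over p57WT on the log2 scale, given ± SE. Over all genes tested, 36.5% were called, 19.3% higher and 17.2% lower. The median log2 fold change was -1.24 over the 67 channel genes and 0.08 over all genes tested. Of the 67, 9 had every p57KO library above every p57WT library, and 18 had every p57KO library below, against 11.5% and 12.7% of all genes tested. Relative to the summed epithelial markers in place of all genes, the median of all genes shifted by -1.49, 3 channel genes were called higher and 44 lower (2.18% and 66% of all genes tested), and Kcne1l, Kcnh7, Kcnk1 and Scn3a changed sign. The 29 genes that did not pass the filter stayed at or below 3.47 CPM in p57KO and 6.74 CPM in p57WT libraries. Of these 29 the groups overlapped in 28, and Kcnd3os was lower in every p57KO library.

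By ion, 9 potassium channel genes were higher and 17 lower of 48 tested (median log2 fold change -1.19). Of 12 calcium channel genes tested, 0 were higher and 8 lower (median -1.95), which were 3 of 7 pore subunits and 5 of 5 auxiliary subunits. At an unadjusted p below 0.05, and by DESeq2, the number of calcium channel genes that were higher was also 0. Voltage-gated sodium channel genes had 1 higher and 1 lower of 5, and acid-sensing channel genes 1 higher and 0 lower of 2. Within potassium channels, voltage-gated pore subunits had 2 higher and 8 lower of 14, calcium- or sodium-activated channels 0 and 4 of 8, silent subunits 0 and 1 of 4, auxiliary subunits 2 and 1 of 10, inward rectifiers 3 and 2 of 7, and tandem-pore background channels 2 and 1 of 5. Of the calls, 29 of 37 held whichever library was left out, and no such share is given for all genes called. The sign within number 607 was the same for all 37, but 0 of the 11 higher genes and 17 of the 26 lower genes were called there (edgeR with the number as a term; 5 of the 11 had an unadjusted p below 0.05), where 1.1% of all genes were called higher and 4.94% lower. The libraries under 607 (p57KO 1, p57KO 2 and p57WT 1) also entered the main fit, so the shared sign is partly built in. No share of kept signs is given for all genes called. With the class of ribosomal RNA share as a term, a choice made after the data were seen, 9 channel genes were called higher and 20 lower (7.22% and 10.5% of all genes). These included 8 of the 11 genes called higher without the term and 19 of the 26 called lower. The calls lost on leaving out at least 1 library were those of Cacnb1, Kcna5, Kcnd1, Kcnh7, Kcnj12, Kcnj8, Kcnk3 and Kcnmb1. Kcnj12, an inward rectifier (-2.199 ± 0.75, adjusted p = 0.0344), lost its call without p57KO 2 or 4 or p57WT 2, 3, 4 or 5. Within 607 Kcnj12 was at -3.92 and not called.

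**Figure D1:**
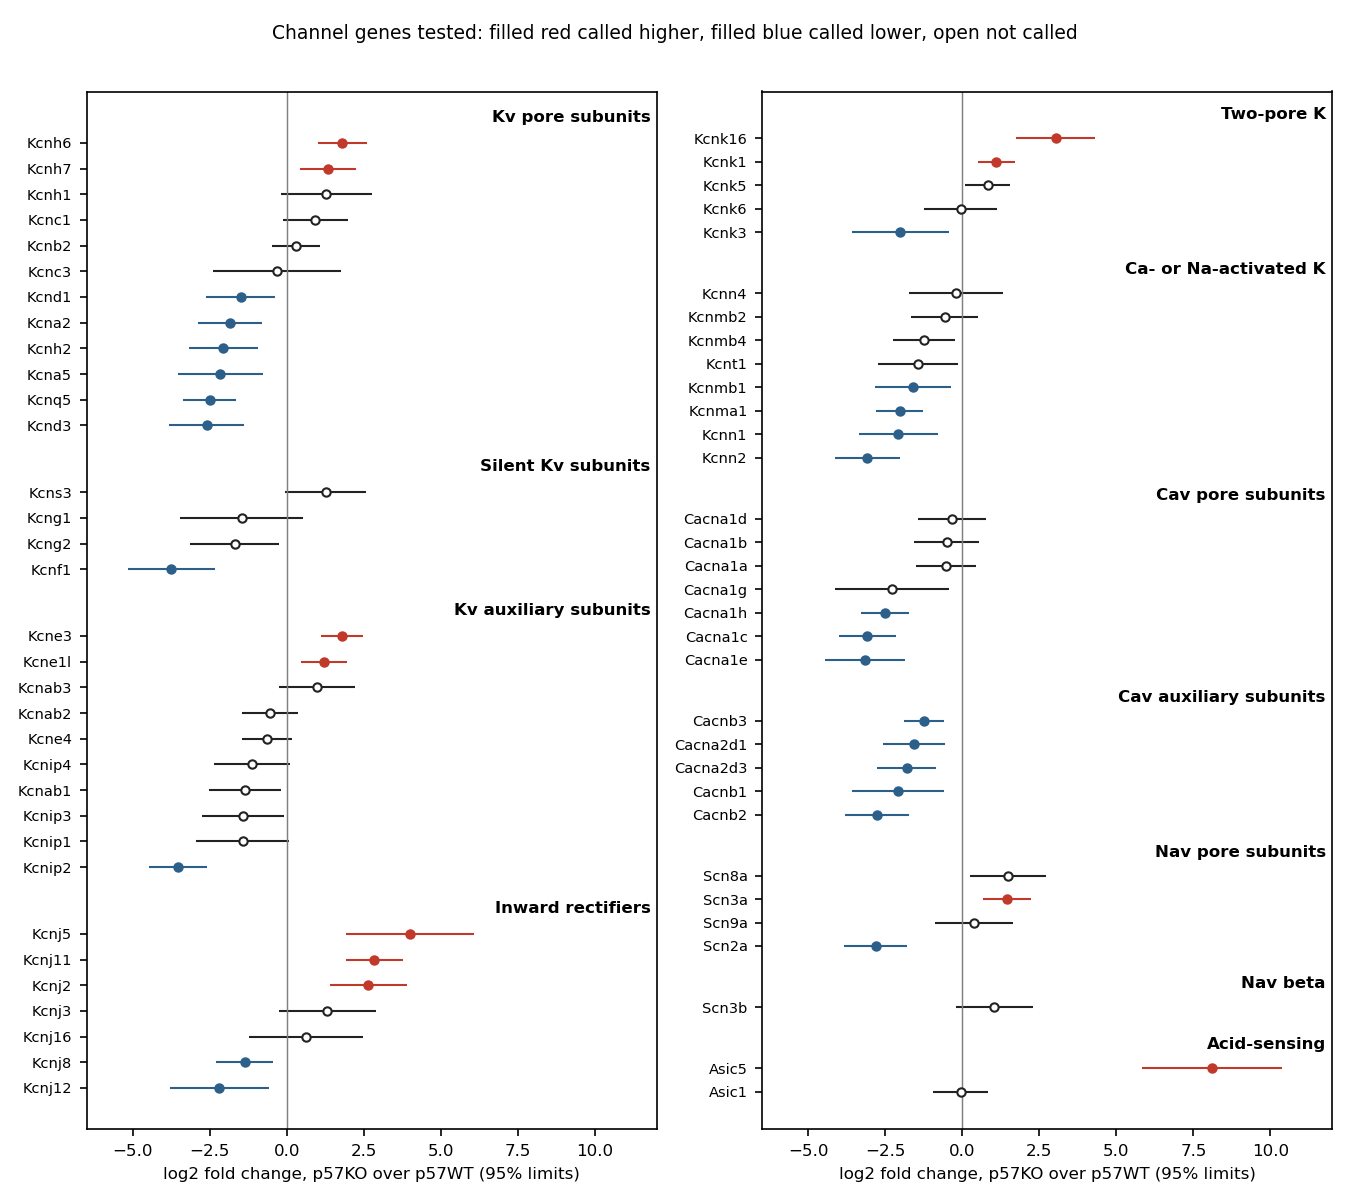
Log2 fold change of p57KO over p57WT with 95% limits for channel genes tested, grouped by family on the vertical axis; filled red points were called higher, filled blue points lower and open points not called. The 11 red points are spread over potassium, sodium and acid-sensing families, and the calcium channel families hold none.

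The pore subunits of voltage-gated calcium channels were led by -3.15 ± 0.61 (SE) for Cacna1e on the log2 scale and -3.08 ± 0.43 for Cacna1c. Cacna1c encodes the L-type pore that carries calcium into smooth muscle. Cacna1c was at 4.37, 6.08, 13.3, 7.11 and 25.2 CPM in p57KO libraries 1 to 5, against 73.97, 81.2, 111, 103 and 104 CPM in p57WT libraries 1 to 5. Every p57KO library was below every p57WT library (adjusted p = 0.000472; within 607, -3.81, adjusted p = 0.00264). Cacna1e encodes the R-type pore of neurons and endocrine cells. Cacna1e was at 3.51, 1.98, 23.98, 15.3 and 29.8 CPM in p57KO libraries 1 to 5, against 88.8, 144, 140.4, 147 and 143 CPM in p57WT libraries 1 to 5. The groups did not overlap, and p57KO 1 and p57KO 2 were lowest (adjusted p = 0.00213; within 607, -5.03, adjusted p = 0.000447). Cacna1h, a T-type pore that opens near the resting potential, averaged 6.87 ± 3.35 CPM in p57KO and 39.2 ± 12.1 CPM in p57WT (SD, n = 5 each; -2.51 ± 0.36, adjusted p = 0.000524). Its counts may share reads with the overlapping antisense gene Tpsg1, since the strand setting of the counting was not given. The same holds for other genes described below that overlap antisense genes, among them Cacna1a, Cacna1d, Cacnb2, Kcnma1, Kcne3, Kcnk1, Kcnk3 and Kcnj3.

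Of the other calcium channel pores, none was called. Cacna1d, an L-type pore of endocrine and pacemaker cells, was not called (-0.34 ± 0.51, adjusted p = 0.625). Cacna1d was at 11.4, 21.2, 3.84, 2.94 and 8.16 CPM in p57KO libraries 1 to 5, against 10.4, 6.34, 15.1, 8.74 and 19.7 CPM in p57WT libraries 1 to 5. The groups overlapped, with p57KO 2 the highest of all libraries. Cacna1a and Cacna1b, the presynaptic P/Q- and N-type pores, were not called either (-0.53 ± 0.45 and -0.51 ± 0.49 on the log2 scale). The T-type Cacna1g was not called (-2.28 ± 0.86, adjusted p = 0.0526), and its value rested on p57WT 5, without which it was -0.99, while without p57KO 5 it was -2.997 and called (adjusted p = 0.0199). The auxiliary subunits that bring the pores to the membrane were lower: Cacnb2 (-2.77 ± 0.48, adjusted p = 0.00132), Cacnb3 (-1.25 ± 0.304, adjusted p = 0.00754) and Cacna2d1 (-1.57 ± 0.47, adjusted p = 0.0206). Within 607 Cacnb3 was at -1.20 and not called.

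Channels known from smooth muscle were lower. Their list holds potassium channel genes and the calcium channel genes Cacna1c, Cacnb2, Cacnb3 and Cacna2d1 described above. The list of smooth muscle channels had 0 higher and 11 lower of 12 (median log2 fold change -2.10), 0 were higher at an unadjusted p below 0.05 or by DESeq2, and the exception was Kcne4, an auxiliary subunit (-0.64 ± 0.38, adjusted p = 0.199). Kcnma1 encodes the pore of the large-conductance calcium-activated channel, which relaxes muscle. Kcnma1 was at 14.1, 15.7, 39.4, 27.98 and 51.97 CPM in p57KO libraries 1 to 5, against 87.1, 145, 109.6, 115 and 151 CPM in p57WT libraries 1 to 5. All p57KO values were below all p57WT values (-2.03 ± 0.35, adjusted p = 0.00134; within 607, -2.54, adjusted p = 0.00401). Its smooth muscle partner Kcnmb1 averaged 17.7 ± 13.999 CPM in p57KO and 54.05 ± 20.5 CPM in p57WT (SD, n = 5 each; -1.604 ± 0.57, adjusted p = 0.0413), and this call was lost without p57KO 2, 4 or 5 or without p57WT 2, 3, 4 or 5. Kcnq5, a pore of the slow non-inactivating current that holds muscle at rest, had a log2 fold change of -2.51 ± 0.400, adjusted p = 0.000849. Kcna5, a delayed rectifier, had -2.17 ± 0.64, adjusted p = 0.0185, and without p57WT 2 it was -1.54 and not called (adjusted p = 0.065). Within 607 Kcnq5 was at -2.19 and Kcna5 at -3.23, and neither was called. All 12 smooth muscle markers fell beside these genes, with no overlap between groups in any of the 12. The 6 fibroblast markers read fell as well, also with no overlap (median log2 fold change -2.85, against -2.39 for the smooth muscle markers), and the part of either cell type in these results was not tested.

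The largest decreases were in Kcnf1 and in Kcnip2, neither of which is on the smooth muscle list. Kcnf1 (ENSMUSG00000051726, chr12:17172100-17176888, minus strand, GRCm38) encodes a silent subunit that forms no channel alone and modifies other voltage-gated pores. Kcnf1 was at 0.171, 1.73, 8.45, 3.44 and 6.51 CPM in p57KO libraries 1 to 5, against 33.8, 91.2, 47.04, 43.9 and 61.3 CPM in p57WT libraries 1 to 5. The groups did not overlap, and the highest p57KO library was under the lowest p57WT library (-3.76 ± 0.66, adjusted p = 0.00133; within 607, -5.01, adjusted p = 0.00418). Kcnip2 (ENSMUSG00000025221, chr19:45791839-45816061, minus strand) encodes a calcium-binding protein that modifies transient outward Kcnd channels. Kcnip2 was at 2.83, 3.799, 13.3, 7.68 and 8.16 CPM in p57KO libraries 1 to 5, against 49.6, 146, 80.2, 74.8 and 65.8 CPM in p57WT libraries 1 to 5. The groups did not overlap here either (-3.53 ± 0.44, adjusted p = 0.000286; within 607, -3.89, adjusted p = 0.00163). Its partner pore Kcnd3 had -2.61 ± 0.57, adjusted p = 0.00402, and its reads may be shared with the antisense gene Kcnd3os. Dpp10, a membrane protein that joins Kcnd complexes and is no channel subunit of the symbol rule, had -3.38 ± 0.72, adjusted p = 0.00365. Kcnn2, the small-conductance calcium-activated channel of the interstitial cell list, had -3.08 ± 0.49, adjusted p = 0.000849. That list had 0 higher and 2 lower of 3 tested. Among the interstitial cell markers, Kit (1.32, adjusted p = 0.0149) and Etv1 (1.223, adjusted p = 0.00653) were higher and Ano1, Gja1 and Thbs4 were lower. The list of neuron and glia channels had 0 higher and 4 lower of 9 tested, beside enteric neuron markers that summed to 32.7 to 67.1 CPM in p57KO and 29.1 to 118 CPM in p57WT libraries. Of the 9 enteric neuron markers tested 4 were lower (Vip, Prph, Stmn2 and Uchl1) and 1 higher (Snap25), with a median log2 fold change of -1.60. Glia markers summed to 54.2 to 112 CPM in p57KO and 44.7 to 84.9 CPM in p57WT libraries, with 1 higher and 1 lower of 4 tested. Of these sums Erbb3 averaged 72.9 CPM in p57KO and 57.6 CPM in p57WT. The part of neurons and glia in the result was not tested.

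Levels were also divided by the summed smooth muscle markers, a description chosen after the values were seen. Per 10000 CPM of these markers, Kcnf1 was at 0.360 to 2.81 CPM in p57KO and 6.83 to 10.2 CPM in p57WT libraries. Kcnip2 was at 2.97 to 5.94 CPM in p57KO and 10.04 to 14.8 CPM in p57WT libraries. With Cacna1e and Cacnb2 these were among the 5 of 26 lower genes with every p57KO ratio below every p57WT ratio, and the other 21 overlapped. Of all 2881 genes called lower, 2.88% had such separate ratios and 4.51% had every p57KO ratio above every p57WT ratio. Kcnma1 was at 10.8 to 29.7 CPM in p57KO and 14.7 to 25.1 CPM in p57WT libraries on this scale. Whether the smooth muscle share sets the changes of the 26 genes was not tested. In 20 of the 26 lower genes p57KO 1 and p57KO 2 were the lowest p57KO libraries, a larger share than the 35.7% of all genes called lower.

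**Figure D2:**
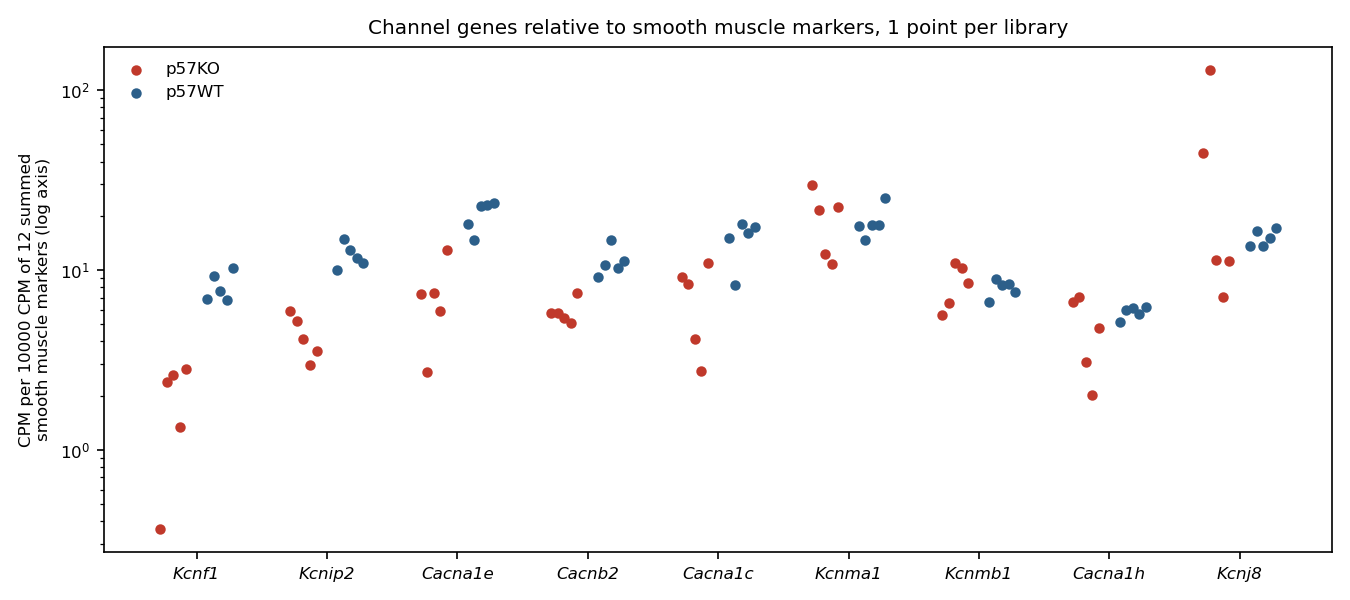
CPM per 10000 CPM of 12 summed smooth muscle markers, on a log axis, for 9 lower channel genes, with 1 point per library and p57KO in red to the left of p57WT in blue. Kcnf1, Kcnip2, Cacna1e and Cacnb2 separate the groups, and the other 5 genes overlap.

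The largest increase was in Asic5, which encodes the bile acid-sensitive member of the acid-sensing channel family. Asic5 was at 2.23, 6.75, 28.4, 17.3 and 6.16 CPM in p57KO libraries 1 to 5, against 0.227, 0, 0, 0 and 0 CPM in p57WT libraries 1 to 5. All p57KO libraries were above all p57WT libraries, and the p57WT libraries together held 2 counts against 1524 in p57KO. In p57WT 2 to 5 a count of 0 allows a level of up to 0.118 to 0.373 CPM. The ratio of the groups' pooled counts, each over its pooled total, was 456 (95% interval 126 to 3766, counting error only), and the fitted log2 fold change of 8.11 ± 1.05, adjusted p = 0.000343 depends on the prior count of the fit. It was 10.69 without p57WT 1, 7.50 without p57KO 3 and 7.50 without p57WT 2. Within 607 the log2 fold change was 4.28, adjusted p = 0.121. Per summed enteroendocrine markers, Asic5 was the 1 of 11 higher genes with every p57KO library above every p57WT library, 6 had every p57KO library below and 4 overlapped. Of all 3226 genes called higher, 0.217% were above and 76.8% below on this scale. Per 10000 CPM of these markers, Asic5 was at 2.62 to 13.7 CPM in p57KO libraries. Its ratios in p57WT 2 to 5 were 0 because the counts were 0, and the marker sum in p57WT 2 was 186 CPM. The level that a count of 0 allows in p57WT 2 gives a ratio above the lowest p57KO ratio. The separation of Asic5 on this scale is therefore not shown. Per summed epithelial markers, Asic5 and Kcnj11 were the 2 of 11 with every p57KO library above, and 9 overlapped, against 4.37% above and 2.54% below over all genes called higher.

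The next group was a list of channels named for hormone-secreting cells, chosen with earlier results of these data known. The list includes Asic5, so its 5 higher genes and its median hold the gene described above. The endocrine list had 5 higher and 0 lower of 12 tested (median log2 fold change 1.38; by DESeq2 and at an unadjusted p below 0.05, 0 lower), beside 16 of 18 enteroendocrine markers higher, and the part of those cells in the result was not tested. Relative to the summed epithelial markers, 2 of its genes, Asic5 and Kcnj11, were called higher. On that scaling Kcnk16 and Kcnh6 were not called (Kcnh6 at 0.29, adjusted p = 0.619), and Kcnb2 (-1.16) and Scn3a (-0.013) changed sign. Kcnj11 (ENSMUSG00000096146, chr7:46093953-46100764, minus strand) encodes the pore of the ATP-sensitive channel of pancreatic beta cells. Kcnj11 was at 3.09, 2.62, 4.43, 2.41 and 5.29 CPM in p57KO libraries 1 to 5, against 0.681, 0.433, 0.482, 0.522 and 0.354 CPM in p57WT libraries 1 to 5. Each p57KO value exceeded all p57WT values (2.84 ± 0.43, adjusted p = 0.000697; within 607, 2.05, adjusted p = 0.196). Kcnk16 encodes a background potassium channel of pancreatic islets. Kcnk16 was at 5.06, 8.23, 14.3, 11.2 and 20.04 CPM in p57KO libraries 1 to 5, against 2.04, 0.315, 0.603, 1.304 and 3.07 CPM in p57WT libraries 1 to 5. The groups did not overlap (3.03 ± 0.597, adjusted p = 0.00244; within 607, 1.70, adjusted p = 0.376). Kcnh6, an ether-a-go-go related channel, had 1.797 ± 0.37, adjusted p = 0.00294. Kcnb2 (0.28 ± 0.36), Kcnmb2 (-0.58 ± 0.51) and Scn8a (1.49 ± 0.57, adjusted p = 0.0567) were not called, and Kcnj6 and Cacna2d2 were not tested. Kcnj3, a G protein-gated inward rectifier, was not called (1.31 ± 0.73, adjusted p = 0.173), and without p57WT 1, which had 9.76 CPM, it was 2.86 and called (adjusted p = 0.00245). Its partner subunit Kcnj5, on none of the lists, was called (3.99 ± 0.96, adjusted p = 0.00714), and was 6.55 without p57WT 1. Within 607 it was 0.80 (adjusted p = 0.689). The p57KO libraries together held 306 counts of Kcnj5 and the p57WT libraries 8, a ratio of 22.9 over the pooled totals (95% interval 11.5 to 53.5, counting error only).

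Epithelial channels included the gene with the highest level per kilobase of exon in p57KO libraries, Kcne3. The epithelial list had 2 higher and 0 lower of 6 tested (median 0.72; by DESeq2 and at an unadjusted p below 0.05, 0 lower), beside the epithelial markers, 16 of 18 of which were higher. Kcne3 encodes an auxiliary subunit that supports chloride secretion by crypt cells. Kcne3 was at 312, 240.4, 163, 268 and 103 CPM in p57KO libraries 1 to 5, against 92.3, 61.6, 54.8, 59.2 and 44.9 CPM in p57WT libraries 1 to 5. The lowest p57KO value exceeded the highest p57WT value (1.79 ± 0.31, adjusted p = 0.00134; within 607, 1.58, adjusted p = 0.115). Relative to the epithelial markers Kcne3 was at 0.303 and not called (adjusted p = 0.352). Kcnk1, a background potassium channel, averaged 99.6 ± 35.9 CPM in p57KO and 46.4 ± 13.7 CPM in p57WT (SD, n = 5 each; 1.102 ± 0.28, adjusted p = 0.0095), with groups that overlapped, and the sign turned to -0.37 relative to the epithelial markers. Kcnn4, the intermediate-conductance calcium-activated channel of enterocytes and leukocytes, was not called (-0.19 ± 0.71, adjusted p = 0.851). Kcnn4 was at 45.95, 23.3, 1.92, 4.01 and 4.77 CPM in p57KO libraries 1 to 5, against 28.9, 14.3, 23.5, 15.9 and 8.63 CPM in p57WT libraries 1 to 5. The p57KO 1 and p57KO 2 libraries were far above the other p57KO libraries. Leaving out p57KO 1 gave -1.09 on the log2 scale, and leaving out both gave -2.31, which was called (adjusted p = 0.00303). Kcnk5 (0.82 ± 0.33, adjusted p = 0.0699), Kcnj16 (0.61 ± 0.86) and Kcnk6 (-0.06 ± 0.56) were not called. Kcnj2, an inward rectifier on the leukocyte list, had 2.65 ± 0.57, adjusted p = 0.00404. That list had 1 higher and 0 lower of 3 tested (median -0.19). Among p57KO libraries, Kcnj2 was lowest in p57KO 2 (2.62 CPM), where the leukocyte markers summed highest (7435 CPM). It was highest in p57KO 5 (6.68 CPM), where they summed lowest (135 CPM). The part of leukocytes in its level was not tested.

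Relatives within the same channel type moved in opposite directions, a comparison chosen after the values were seen. The ATP-sensitive channel pore Kcnj8 (ENSMUSG00000030247, chr6:142564837-142571614, minus strand) is the vascular and smooth muscle relative of Kcnj11. Kcnj8 was at 21.3, 94.6, 36.8, 18.3 and 25.9 CPM in p57KO libraries 1 to 5, against 67.05, 162, 84.4, 96.5 and 103 CPM in p57WT libraries 1 to 5. Of the p57KO libraries, p57KO 2 alone overlapped the p57WT libraries (-1.38 ± 0.43, adjusted p = 0.024). Without p57KO 2 the log2 fold change was -1.97, without p57KO 4 and without p57WT 2 it was not called (adjusted p = 0.0584 and 0.06), and within 607 it was -0.21, adjusted p = 0.887. The regulatory subunits that pair with these pores, read from the list of other cation genes, were Abcc8 with 2.15 ± 0.41, adjusted p = 0.00214 and Abcc9 with -2.59 ± 0.28, adjusted p = 0.000178. Abcc8, the partner of Kcnj11, averaged 18.8 ± 8.41 CPM in p57KO and 4.26 ± 1.84 CPM in p57WT (SD, n = 5 each). Abcc9, the partner of Kcnj8, averaged 19.8 ± 5.93 CPM in p57KO and 119 ± 34.8 CPM in p57WT (SD, n = 5 each).

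Sodium channels gave a second such pair from neighbouring genes on chromosome 2. Scn3a (ENSMUSG00000057182, chr2:65457118-65567627, minus strand), a sodium channel pore of developing neurons and endocrine cells, was higher, although relative to the epithelial markers its log2 fold change was -0.013. Scn3a was at 25.6, 14.5, 24.99, 15.2 and 24.6 CPM in p57KO libraries 1 to 5, against 8.51, 2.56, 8.32, 8.35 and 10.8 CPM in p57WT libraries 1 to 5. Scn2a (ENSMUSG00000075318, chr2:65620771-65767447, plus strand), a sodium channel pore of axons, was lower. Scn2a was at 1.11, 0.211, 1.08, 1.15 and 1.74 CPM in p57KO libraries 1 to 5, against 6.24, 7.996, 7.24, 8.08 and 7.21 CPM in p57WT libraries 1 to 5. Both separated the groups without overlap (1.45 ± 0.36, adjusted p = 0.00852 for Scn3a and -2.81 ± 0.47, adjusted p = 0.0011 for Scn2a; within 607, 1.23, adjusted p = 0.363 and -3.32, adjusted p = 0.0301). Among ether-a-go-go related channels, Kcnh6 and Kcnh7 (1.33 ± 0.42, adjusted p = 0.0264; -0.13 relative to the epithelial markers) were higher and Kcnh2 was lower (-2.07 ± 0.52, adjusted p = 0.00855). Within 607 Kcnh2 was at -2.25 and not called. The Kcnh7 call was lost without p57WT 1, 2, 4 or 5, and its reads may be shared with the antisense gene Gca. Among background channels, Kcnk3 (-2.02 ± 0.73, adjusted p = 0.0446) was lower. The Kcnk3 value was -3.14 without p57KO 5, and the Kcnk3 call was lost on leaving out any other library but p57WT 2. Of the background channels that were higher, Kcnk1 turned to -0.37 relative to the epithelial markers and Kcnk16 was at 1.63 (adjusted p = 0.0514).

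**Figure D3:**
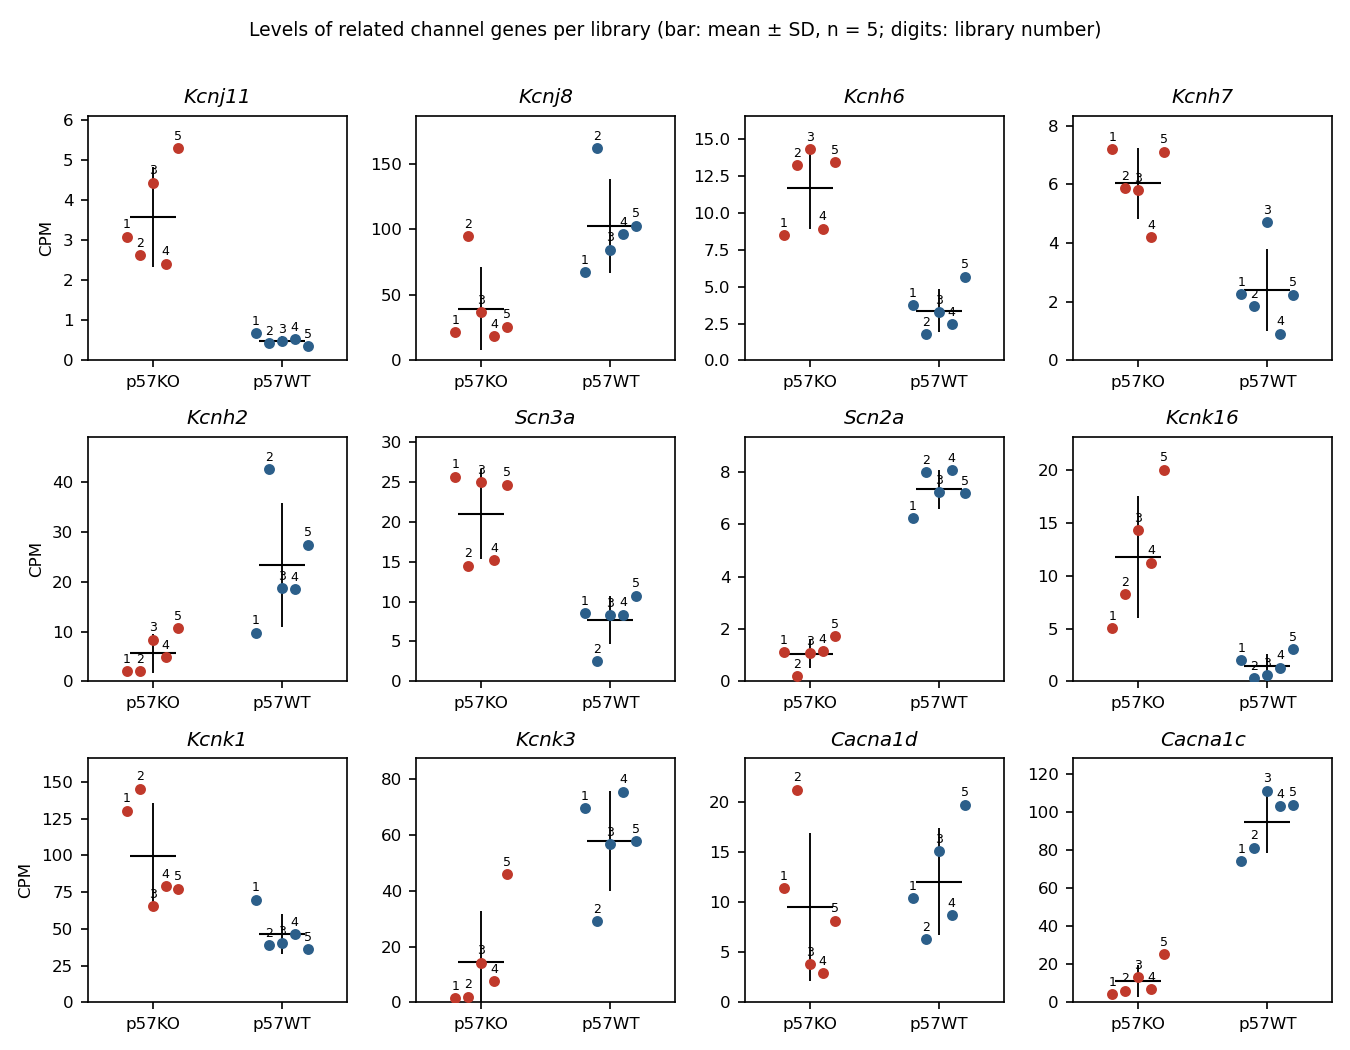
CPM per library of 12 related channel genes, 1 panel per gene, with p57KO in red left of p57WT in blue, library numbers beside the points and the mean ± SD (n = 5) as a black bar; the vertical scale differs between panels. Kcnj11, Scn3a and Kcnk16 lie above p57WT in every p57KO library, Cacna1c and Scn2a below, and Kcnj8 overlaps through p57KO 2.

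Levels between genes were compared per kilobase of exon. In p57KO libraries the order was led by Kcne3 at 122 ± 47.03 CPM per kb, Kcnk1 at 44.5 ± 16.04 and Kcnj8 at 15.4 ± 12.4 (SD, n = 5). In p57WT libraries it was led by Kcnj8 at 40.2 ± 14.1, Kcne3 at 35.2 ± 10.02 and Kcnip2 at 23.96 ± 10.6 CPM per kb, and Kcnj8 and Kcne3 differed there by less than either SD. Asic5 ranked 6 of 96 in p57KO and 96 in p57WT libraries. Kcnf1 ranked 32 in p57KO and 10 in p57WT, and Kcnip2 ranked 18 in p57KO and 3 in p57WT.

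**Figure D4:**
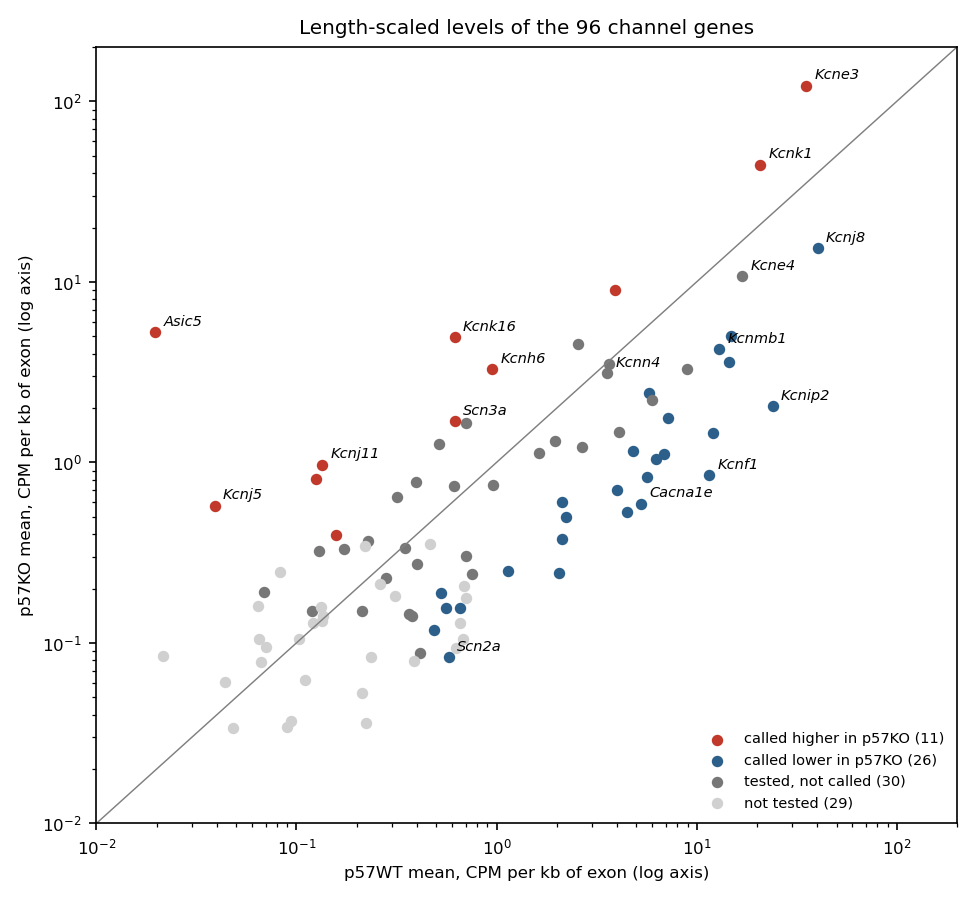
Mean level in p57KO (vertical) against p57WT (horizontal), in CPM per kb of exon on log axes, for the 96 channel genes; a point on the grey line has equal means. Asic5 lies far above the line at the left edge, Kcne3 is the highest in p57KO, and Kcnf1 and Kcnip2 lie far below the line.

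Other genes of the same physiology, outside the symbol rule, were read from a list of 51 cation-handling genes. Of these, 44 were tested, 3 were higher and 19 lower, against 19.3% and 17.2% of all genes tested (median log2 fold change -0.78). The higher ones included Abcc8 and the calmodulin-dependent kinase subunit Camk2b (1.98 ± 0.37, adjusted p = 0.0019). The lower ones included the calcium release channels Ryr2 (-3.42 ± 0.603, adjusted p = 0.00138), Ryr3 (-2.79 ± 0.41, adjusted p = 0.000582) and Itpr1 (-1.605 ± 0.28, adjusted p = 0.0013) and the plasma membrane calcium pump Atp2b4 (-3.01 ± 0.54, adjusted p = 0.00146). The exchangers Slc8a1 (-2.32 ± 0.39, adjusted p = 0.0011) and Slc8a2 (-3.96 ± 0.81, adjusted p = 0.00288), which move calcium out against sodium, were lower too. Trpm7 (-0.09 ± 0.18, adjusted p = 0.71) and Itpr3 (0.04 ± 0.28, adjusted p = 0.913) were not called.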

How the data were processed

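Per the submitters' processing notes, the tools named are HTSeq 1.0, STAR 2.6.1d, DESeq2 1.22.2, Trim Galore, Cufflinks 2.2.1 and FastQC, and the builds mm10 and GRCm38. The sources used here give neither their roles nor a strand setting. The authors deposited 1 table of 20579 genes with raw counts per library, normalized counts (a signal scaled by size factors), a log2 fold change, a test statistic (a score) and p-values. Its smallest mean normalized count was 3.00. At the same threshold, the authors' deposited table has the 96 channel genes as 13 higher and 35 lower. No share over all genes is given for that test, so the count cannot be set against a background. The deposited raw counts were tested here. The deposited normalized counts were read only to check the size factors and the lowest mean, and the deposited test only for that count of calls.

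Libraries were grouped by their titles. Counts of all genes were fitted with edgeR 4.0.16 in R 4.3.3 (TMM scaling, filterByExpr, quasi-likelihood F test, genotype as the only term), which left 16710 genes, with a threshold of 0.05 on the Benjamini-Hochberg adjusted p. CPM use library totals scaled by the TMM factors. The fit was tested on simulated data drawn from the libraries' means. These data had the same dispersion for every gene and no differences in label number, ribosomal RNA or cell mix. They do not show how the fit behaves at the spread of the real libraries. DESeq2 1.42.0 and limma 3.58.1 served as alternatives, with RLE size factors, no expression filter, each library left out, p57KO 1 and 2 left out together, a replicate block, the label number as a term and scaling to epithelial markers. A term for the class of ribosomal RNA share was added after seeing the data. Gene positions came from GENCODE M21 (20558 genes matched), and 34 channel genes share exon sequence with another gene. Of a library's total, 3 counts are 0.112 to 0.373 CPM, and counting intervals cover counting error only.

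The members and the lists were chosen with earlier results of these data known. The genes named were Asic5, Kcnf1, up to 14 called genes in each direction by fold change (11 were called higher) whose mean reached 1 CPM in 1 genotype and whose sign was the same without each library, and the members of the smooth muscle, interstitial, endocrine and epithelial lists. The ratios to marker sums, the promoter windows and the relatives compared, Kcnh2 and Kcnk3 among them, were chosen after their values were seen, as were other genes named outside the rule. No pair of libraries was alike within sampling noise. Results for a few genes are not reported here, though the counts include them.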

Additional observations from a re-analysis of the deposited data

Results flagged for a closer look

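In 13 of 96 groups of 5 libraries (each named channel gene in each genotype), the library furthest from the others stood apart by more than 0.71 of the group's range. For 5 normally distributed values chance alone gives about 1 in 20 groups. That rate does not hold for CPM of low counts. Asic5 in p57WT, with counts in p57WT 1 only, stands apart by construction. The 13 groups are therefore not shown to exceed chance. Among p57KO libraries these were Kcnj8 in p57KO 2 (94.6 CPM), Cacna1b in p57KO 5 (3.04 CPM), Cacna2d2 in p57KO 5 (3.47 CPM) and Kcnj13 in p57KO 5 (0 CPM). In p57WT 1 they were Asic5 (0.227 CPM), Cacna1e (88.8 CPM), Kcnj3 (9.76 CPM) and Kcnj5 (0.794 CPM). In p57WT 2 they were Kcna5 (15.2 CPM), Kcne4 (95.3 CPM), Kcnj13 (2.25 CPM) and Kcnmb2 (10.9 CPM), and in p57WT 5 the library apart was that of Cacna1g (14.2 CPM).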

How the results depend on the processing

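With the label number as a term, 0 channel genes were called higher, the smooth muscle list had 7 lower, the endocrine and epithelial lists 0 and 0 higher, and other cation genes 0 higher and 11 lower. Scaled to epithelial markers, channel genes had 3 higher and 44 lower, the endocrine and epithelial lists 2 and 0 higher, and other cation genes 0 higher and 33 lower. Other cation genes called higher were 5 with no expression filter, 5 without p57KO 1 and p57KO 2, and 8 by DESeq2. With the ribosomal RNA class, the epithelial list had 1 higher. The cause was not tested. With the replicate number as a block 12 channel genes were higher and 29 lower, and no share over all genes is given for that fit. Same-numbered libraries correlated at 0.204, 0.0504, -0.134, -0.115 and 0.147 in their deviations, so the numbers do not pair them. Signs of single genes also turned. With the label term the log2 fold change was 0.65 for Cacna1d, 0.076 for Kcne4, -1.32 for Kcnj3, 0.41 for Kcnk6 and 0.26 for Kcnn4. Scaled to epithelial markers it was -1.16 for Kcnb2, -0.28 for Kcne1l, -0.13 for Kcnh7, -0.87 for Kcnj16, -0.37 for Kcnk1, -0.65 for Kcnk5 and -0.013 for Scn3a. With the ribosomal RNA class it was 0.51 for Cacna1a, 0.20 for Cacna1b and 0.86 for Kcnk6. Kcnk6 was 0.15 with the replicate block and 0.21 by limma voom. Leaving out 1 library gave -0.45 to 0.65 for Kcnk6 and -1.09 to 0.10 for Kcnn4. Of 43 named genes tested, 12 kept direction and side of the threshold in every alternative run.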
